A study of Xenopus laevis with 9 samples.

Results

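Ventral and cement gland tissue of Xenopus laevis, the African clawed frog, was compared with the mouth region and the dorsal head of the same stage. Of the 9 arrays of the study, 3 were hybridised with ventral and cement gland RNA (numbered 1, 2 and 3), 3 with primary mouth RNA (numbered 1a, 2 and 3) and 3 with RNA from anterior dorsal tissue (numbered 1, 2 and 3). All tissues were cut from embryos at stage 26, a tailbud stage, and every sample held tissue pooled from 75 to 100 embryos. The labels name no genotype, strain or drug treatment for any group, and tell the 3 groups apart by the dissected region alone. Genes of interest were those for which all 3 ventral signals lay above, or all below, the 6 signals of the other tissues. Below, values of a tissue are given in the order of its array numbers, and "ventral tissue" stands for the ventral piece with the cement gland. A whole piece of embryo was used, so in every comparison fewer cells of a type and less RNA per cell cannot be told apart.

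The cement gland is a patch of tall columnar ectoderm at the front and underside of the frog embryo that secretes sticky mucus, by which the hatched larva hangs on to a surface. Its cells make mucins and carry much endoplasmic reticulum, and its formation is known to depend on an intermediate level of BMP signalling and on homeobox genes such as otx2 and pitx1. Mucins are large secreted proteins whose chains are covered with sugars, and disulfide isomerases of the anterior gradient family help to fold them in the endoplasmic reticulum. Beneath and behind the gland, the ventral side of a tailbud embryo holds epidermis, the heart-forming mesoderm, the foregut floor and the region where the first myeloid cells arise.

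The markers of the cement gland were higher in the tissue labelled with its name. Signals of ag1.L (gene ID 379354), a secreted anterior gradient protein, were 9019.9, 5626 and 7305 in ventral tissue, 2377, 2362 and 3639.98 in primary mouth and 1402, 1641 and 1523 in anterior dorsal tissue. Those of its relative agr2.L (gene ID 379407) were 3240.4, 2978 and 3394 in ventral tissue, 1429, 915 and 1152 in primary mouth and 288, 417 and 171 in anterior dorsal tissue. The mucin gene muc2l.L (gene ID 100049101) read 2046, 1182 and 1408 in ventral tissue, 46.9, 54.7 and 76.97 in primary mouth and 12.9, 30.5 and 3.29 in anterior dorsal tissue. Every ventral signal of these 3 genes lay above all 6 others, and the groups did not overlap. The log2 differences between ventral tissue and the mean of both other tissues were 1.81 ± 0.18 (SE, adjusted p = 2.42e-05), 2.47 ± 0.23 (SE, adjusted p = 1.17e-05) and 5.02 ± 0.26 (SE, adjusted p = 2.06e-07) in limma. The mucin gene had the largest difference of the 3. In ag1.L and agr2.L the mouth arrays also lay above the dorsal arrays.

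Across probe sets, log2 signals of array pairs had a Pearson correlation of 0.971 to 0.986 within ventral tissue, 0.927 to 0.959 between ventral tissue and primary mouth and 0.916 to 0.940 between ventral and anterior dorsal tissue. A control ratio, 3′ over 5′ beta-actin, rises where RNA is broken or labelling is incomplete. It was 5.48 to 11.2 on 4 arrays (ventral 1, primary mouth 1a and 2, anterior dorsal 1) and 1.46 to 2.03 on the other 5, so each tissue had arrays of both kinds. In total, 2565 of 10011 probe sets differed between these kinds of array (limma adjusted p under 0.05, tissue in the model). The same ratio for GAPDH was 9.2 to 23.9, highest on primary mouth 2, and did not divide the arrays in this way: primary mouth 3 (14.02) and anterior dorsal 3 (13.7), of low beta-actin ratio, lay above anterior dorsal 1 (13.2), of high ratio. Another control probe set, dap, did divide them as the beta-actin ratio does. It read 2268 to 3008 on the 4 arrays of high ratio and 540 to 858 on the other 5. No label says what this division stands for. The part of these control values in the results was not tested beyond the fits within each kind of beta-actin ratio and the fit with that class as a block.

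In total, 1091 of 10011 tested probe sets (10.9%) were higher in ventral tissue than in both other tissues, and 589 (5.88%) were lower. A probe set was called when limma's contrast of ventral tissue with the mean of both other tissues passed an adjusted p of 0.05 and its 3 ventral signals lay outside the range of the 6 others. With 1 probe set per gene, the counts were 576 (10.7%) higher and 330 (6.14%) lower of 5371 genes. The contrast without the rule on overlap gave 1378 (13.8%) and 926 (9.25%), and the rule on overlap alone gave 1217 (12.2%) and 825 (8.24%). With every probe set tested and no filter on low signals, 1272 (8.21%) were higher and 587 (3.79%) lower. Against each tissue separately, 801 probe sets (8%) were higher and 254 (2.54%) lower in both pairwise contrasts. With the class of beta-actin ratio as a block, all 1091 higher and all 589 lower probe sets kept their call. Within the arrays of low and within those of high beta-actin ratio, 1009 and 578 of the higher ones and 491 and 256 of the lower ones passed the threshold again. The high-ratio fit has 4 arrays and takes its spread from primary mouth alone.

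Most called differences were modest and a few were large. Among the higher probe sets, 351 exceeded each other tissue by over 1 on the log2 scale, 69 by over 2 and 11 by over 3. Among the lower ones these numbers were 84, 12 and 5. At the edge of the rule, sri.L was just inside, with ventral signals from 191 up against at most 190.4 elsewhere, and alas1.L just outside (103.24 against 103.25). On the lower side psmb2.L was just inside, with ventral signals up to 717.6 against at least 717.9, and insm1.L just outside (31.3 against 31.2). The filter kept probe sets whose signal exceeded its array's 40th percentile on at least 3 arrays. For this reason all 136 probe sets that passed it on the ventral arrays alone were called higher and had to differ. Likewise, 414 probe sets passed through the other tissues alone, and they held 141 of the 589 lower calls. Where gene groups hold members of either kind, counts without the filter are given, for which the background was 9.04% higher and 4.43% lower of 7242 genes.

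**Figure D1:**
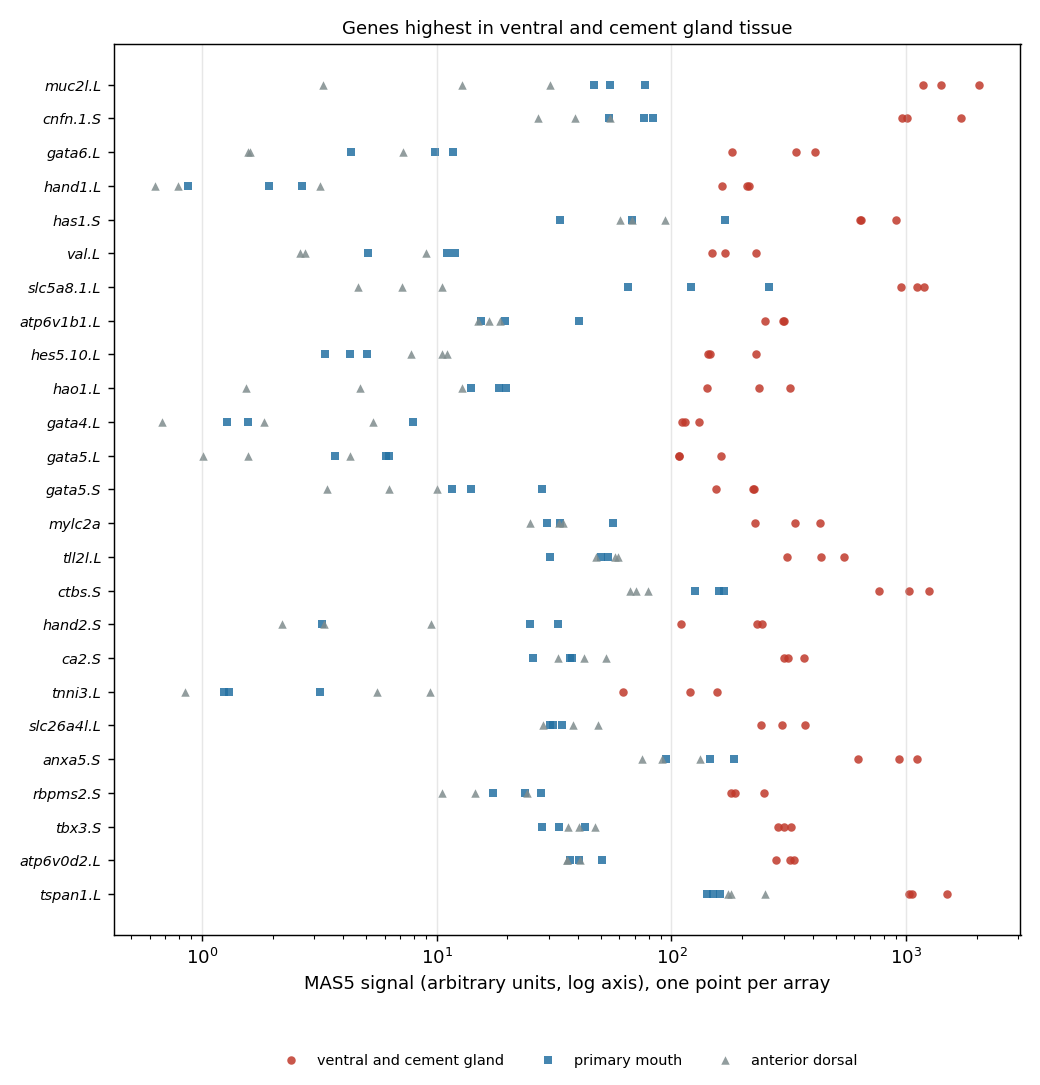
Signals of the 25 named genes that stood highest in ventral and cement gland tissue by the smaller of both pairwise differences, with 1 point per array on a log axis (MAS5 units). In every row the 3 ventral points lie to the right of the 6 others, as the choice of genes requires, and mouth and dorsal points overlap for most genes. For muc2l.L the ventral arrays lie at 1182 to 2046 and the others at 3.29 to 76.97.

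The cement gland group was higher in ventral tissue in all but 1 of its members. Of 6 genes on the array, all tested, 5 were higher and 0 lower, with a median log2 difference of 2.27 against -0.04 over all genes on the array. The S copies followed their homeologs. Signals of ag1.S (gene ID 397989) were 7181, 4989.7 and 7202 in ventral tissue, 1688, 1343 and 2845 in primary mouth and 1005, 1342 and 1342 in anterior dorsal tissue (log2 difference 2.07 ± 0.23 SE, adjusted p = 3.79e-05). For agr2.S (gene ID 398260) they were 3734, 3189.8 and 4334 in ventral tissue, 975, 560.1 and 1068 in primary mouth and 169.7, 439 and 117 in anterior dorsal tissue (log2 difference 3.098 ± 0.33 SE, adjusted p = 3.16e-05). Both genes were separated from the other tissues on every array.

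The exception was the homeobox gene pitx1.L (gene ID 394310), which read 168, 164 and 98.4 in ventral tissue, 209, 239.8 and 191 in primary mouth and 30.97, 29.5 and 25.04 in anterior dorsal tissue. Its ventral signals lay above the dorsal ones and below the mouth signals, so it was not called although the contrast passed (0.63 ± 0.17 SE, adjusted p = 0.0207). That contrast lost its threshold without ventral 1 (adjusted p = 0.0945) or ventral 2 (0.111) and within each kind of array (0.0779 and 0.0765). The head homeobox gene otx2.L (gene ID 432013) was lower in ventral tissue, at 80.4, 88.6 and 120.2 in ventral tissue, 199, 167 and 207 in primary mouth and 414, 443 and 449 in anterior dorsal tissue (log2 difference -1.46 ± 0.15 SE, adjusted p = 2.38e-05). Its signals were ordered from ventral tissue over mouth to dorsal head with no overlap between tissues. The S copy, otx2.S (gene ID 399342), was not called because its mouth arrays overlapped the ventral ones (14.1 to 16.3 in ventral tissue and 13.9 to 92.5 on the other 6 arrays).

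Further groups concerned mucus and its making. Of 6 genes of goblet cells and epidermal mucus, 4 were higher without the filter and 0 were lower (median 1.16). The galectin gene lgals4.2.L (gene ID 398443), which encodes a sugar-binding protein, read 3479, 2608 and 2911 in ventral tissue, 657, 447 and 819 in primary mouth and 174, 189 and 106 in anterior dorsal tissue (log2 difference 3.19 ± 0.21 SE, adjusted p = 9.43e-07). Its ventral signals lay above those of both other tissues, and the mouth arrays in turn lay above the dorsal ones. Further galectins, lgals9c.S (1.94) and lgals3.L (0.81), were higher too, as was the forkhead gene foxa1.S (1.497), with adjusted p of 3.07e-05 to 0.000884. Of these, lgals9c.S passed the filter on the ventral arrays alone and so had to be higher. Its homeolog lgals9c.L did not pass the filter and did not share the difference (log2 difference -0.002 in the fit without it). The intelectin gene itln1.L (gene ID 398574), a marker of mucus-secreting goblet cells of the frog epidermis, was not called, at 10294, 5452 and 7131 in ventral tissue, 6994, 10826 and 5971 in primary mouth and 6681, 5191 and 5591 in anterior dorsal tissue (adjusted p = 0.691). Its groups overlapped throughout.

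Genes of mucin-type glycosylation and sugar-nucleotide supply were higher in 10 of 36 cases without the filter and lower in 2 (median 0.26). The enzyme gene gfpt1.S (gene ID 414702) catalyses the first step toward the amino sugars of mucin chains and read 2166, 1329 and 1811 in ventral tissue, 391, 427 and 466 in primary mouth and 474, 418 and 472 in anterior dorsal tissue (log2 difference 1.94 ± 0.16 SE, adjusted p = 4.35e-06). All its ventral signals were 1329 or more and all others 474 or less. Its paralog gfpt2.L was also higher (1.54 ± 0.29 SE, adjusted p = 0.00234), with ventral signals that varied more, 1209, 1731 and 2896. The genes gmds.L, which makes the precursor of the fucose donor, and gcnt1.L, which branches O-linked chains, differed by 1.45 and 1.401 on the log2 scale (adjusted p = 2.63e-05 to 0.000218). The lower members were the galactosyltransferase gene b4galt2.S (-0.88) and the sulfotransferase gene chst10.L (-0.65), both of which lost the call within the high-ratio arrays (adjusted p = 0.0842 and 0.36).

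Genes of the endoplasmic reticulum and secretory pathway were higher in 15 of 74 tested cases and lower in 0, against 10.7% and 6.14% of all tested genes. Their median was 0.37 over the 79 on the array. The other 59 were not called, and the unadjusted contrast put 35 at p under 0.05 in the higher direction, against 0 in the lower. Of all 5371 genes 18.6% were higher and 16.9% lower at that threshold. The receptor gene kdelr2.L (gene ID 380330), which returns escaped proteins to the endoplasmic reticulum, read 3875, 2881 and 4043 in ventral tissue, 1482, 1454 and 1694 in primary mouth and 1494, 1172 and 1361 in anterior dorsal tissue (log2 difference 1.302 ± 0.15 SE, adjusted p = 5.62e-05). The ribosome-binding protein gene rrbp1.S differed by 1.66 ± 0.16 (SE, adjusted p = 1.81e-05). The transcription factor gene xbp1.L, which drives expansion of the secretory machinery, read 689 to 912 in ventral tissue and 289.9 to 538 on the other 6 arrays (log2 difference 0.996 ± 0.17 SE, adjusted p = 0.00114). The quality-control gene edem1.L differed by 1.01, a call lost within the high-ratio arrays (adjusted p = 0.0932). With the class of beta-actin ratio as a block 21 were higher, and with median centring 12.

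Further genes with large differences stand outside the lists of cement gland and mucus. The cornifelin-like gene cnfn.1.S (gene ID 444756), named for a protein of the cornified layer of skin, read 960.2, 1007 and 1710.4 in ventral tissue, 54.2, 83.3 and 76.2 in primary mouth and 38.9, 54.5 and 26.96 in anterior dorsal tissue (log2 difference 4.12 ± 0.22 SE, adjusted p = 2.25e-07). Its homeolog cnfn.1.L did not share this difference and was not called (log2 difference -0.68). The sodium-coupled monocarboxylate transporter gene slc5a8.1.L (gene ID 403396) read 1186, 946 and 1109.8 in ventral tissue, 121, 65.2 and 259.7 in primary mouth and 10.5, 7.15 and 4.64 in anterior dorsal tissue (log2 difference 4.23 ± 0.29 SE, adjusted p = 1.2e-06). Its mouth signals lay between those of ventral and dorsal tissue on all arrays. The lysosomal chitobiase gene ctbs.S (gene ID 379420), which breaks down sugar chains of glycoproteins, read 1250.5, 768 and 1029 in ventral tissue, 159, 167 and 126 in primary mouth and 79.8, 70.9 and 66.4 in anterior dorsal tissue (log2 difference 3.07 ± 0.17 SE, adjusted p = 2.44e-07). The tetraspanin gene tspan1.L (1031 to 1489 in ventral tissue and 142 to 250.5 on the other 6 arrays) and the hyaluronan synthase gene has1.S (634 to 903 in ventral tissue and 33.6 to 168 on the other 6 arrays) were apart from all other arrays as well. Their log2 differences were 2.65 ± 0.17 (SE, adjusted p = 6.24e-07) and 3.02 ± 0.32 (SE, adjusted p = 3.21e-05).

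Epidermal keratinocyte genes were higher in 9 of 27 tested cases and lower in 0 (median 0.32 over 46 on the array), against 10.7% and 6.14% of all tested genes. Besides cnfn.1.S these included the zinc finger gene gata3.S (1.65) and the plakin genes ppl.L (0.94) and evpl.L (1.06), whose products anchor keratin filaments (adjusted p = 3.05e-05 to 0.00164). Only krt12.4.S, an epidermal keratin gene, was called (0.55) among the list's tested keratin genes. It lost the call without primary mouth 1a (adjusted p = 0.055), ventral 2 (0.0651) or ventral 3 (0.132). The uncalled keratin genes ran from -0.30 (krt70.L) to 1.54 (krt18.1.L). Neither krt18.1.L (1718 to 2758 in ventral tissue and 262 to 2686 on the other 6 arrays) nor krt19.L (4262 to 6459.7 in ventral tissue and 949 to 4837 on the other 6 arrays) was called. For both, the mouth signals overlapped the ventral ones and lay above the dorsal ones, with a mouth minus dorsal difference of 2.24 ± 0.29 (SE, adjusted p = 0.000299) and 1.91 ± 0.19 (SE, adjusted p = 4.7e-05).

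Cell junction genes were higher in 7 of 27 tested cases and lower in 0 (median 0.55 over 30 on the array), against 10.7% and 6.14% of all tested genes. The gap junction gene gjb2.L (gene ID 380170) read 643, 644 and 620.2 in ventral tissue, 169, 209 and 327 in primary mouth and 62.8, 49.99 and 52.02 in anterior dorsal tissue (log2 difference 2.32 ± 0.18 SE, adjusted p = 2.95e-06). It stood apart from the rest of the group, with even ventral signals and a graded level elsewhere. The desmosome gene dsp.S (0.95), the claudin gene cldn5.S (0.92) and the tight junction gene cgn.L (0.86) were called with smaller differences, and each lost the call within the high-ratio arrays (adjusted p = 0.0837, 0.105 and 0.205).

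Ionocytes are epidermal cells that pump protons and exchange ions through vacuolar ATPases, carbonic anhydrases and anion exchangers. Of 11 ionocyte genes on the array, 8 were higher in ventral tissue without the filter and 0 lower (median 1.68). The proton pump subunit gene atp6v1b1.L (gene ID 779272) read 251, 302 and 298 in ventral tissue, 19.5, 40.4 and 15.4 in primary mouth and 15.02, 16.7 and 18.6 in anterior dorsal tissue (log2 difference 3.05 ± 0.18 SE, adjusted p = 4.59e-07). Another subunit gene, atp6v0d2.L (gene ID 447489), read 333, 278 and 319 in ventral tissue, 40.4, 50.8 and 36.9 in primary mouth and 40.9, 35.9 and 35.7 in anterior dorsal tissue (log2 difference 2.54 ± 0.14 SE, adjusted p = 2.44e-07). Both pump genes were even across the ventral arrays and lay at a like low level in mouth and dorsal head. The carbonic anhydrase gene ca2.S (300.3 to 367 in ventral tissue and 25.8 to 52.5 on the other 6 arrays) and the pump gene atp6v0a4.L (61.5 to 75.5 in ventral tissue and 1.07 to 10.2 on the other 6 arrays) did the same. Another carbonic anhydrase gene, ca12.L, was read at 148 to 210.4 in ventral tissue and 19.8 to 84.9 on the other 6 arrays (log2 difference 1.54 ± 0.199 SE, adjusted p = 0.000139). The forkhead gene foxi1.L (gene ID 380059), the regulator that specifies these cells in frog skin, read 66.2, 50.2 and 56.6 in ventral tissue, 5.52, 4.64 and 1.38 in primary mouth and 12.1, 7.45 and 6.61 in anterior dorsal tissue (log2 difference 1.73 ± 0.14 SE, adjusted p = 3.33e-06). Both foxi1.L and atp6v0a4.L passed the filter on the ventral arrays alone and so had to be higher. The ubiquitous pump subunit gene atp6v1a.L overlapped between tissues (197 to 287 in ventral tissue and 130.4 to 302 on the other 6 arrays, adjusted p = 0.636). Summed over the list, signals were 1608 to 1637 on the ventral arrays, 290.4 to 438 on the mouth arrays and 434 to 539 on the dorsal arrays. Outside the list, the pendrin-like anion exchanger gene slc26a4l.L (gene ID 496380) read 240.2 to 371 in ventral tissue and 28.3 to 48.9 on the other 6 arrays (log2 difference 2.63 ± 0.17 SE, adjusted p = 7.1e-07).

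Ciliated cells are another cell type of frog epidermis. Of 14 of their genes on the array 3 were higher and 1 lower without the filter (median 0.44), against 9.04% and 4.43% of all genes. The higher members build the axoneme: spag6.L (1.12), tekt4.S (1.05) and tekt2.S (0.83). With the filter 2 were lower, neither of which had a ventral array above it. They were ccno.L (-0.87), a regulator of centriole multiplication, and the transcription factor gene rfx2.S (-0.46, adjusted p = 0.0494). The rfx2.S call was lost in most alternative fits, among them those without ventral 1 (adjusted p = 0.0588), 2 (0.202) or 3 (0.123). Those of spag6.L and tekt2.S were lost within the high-ratio arrays (0.143 and 0.0734).

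**Figure D2:**
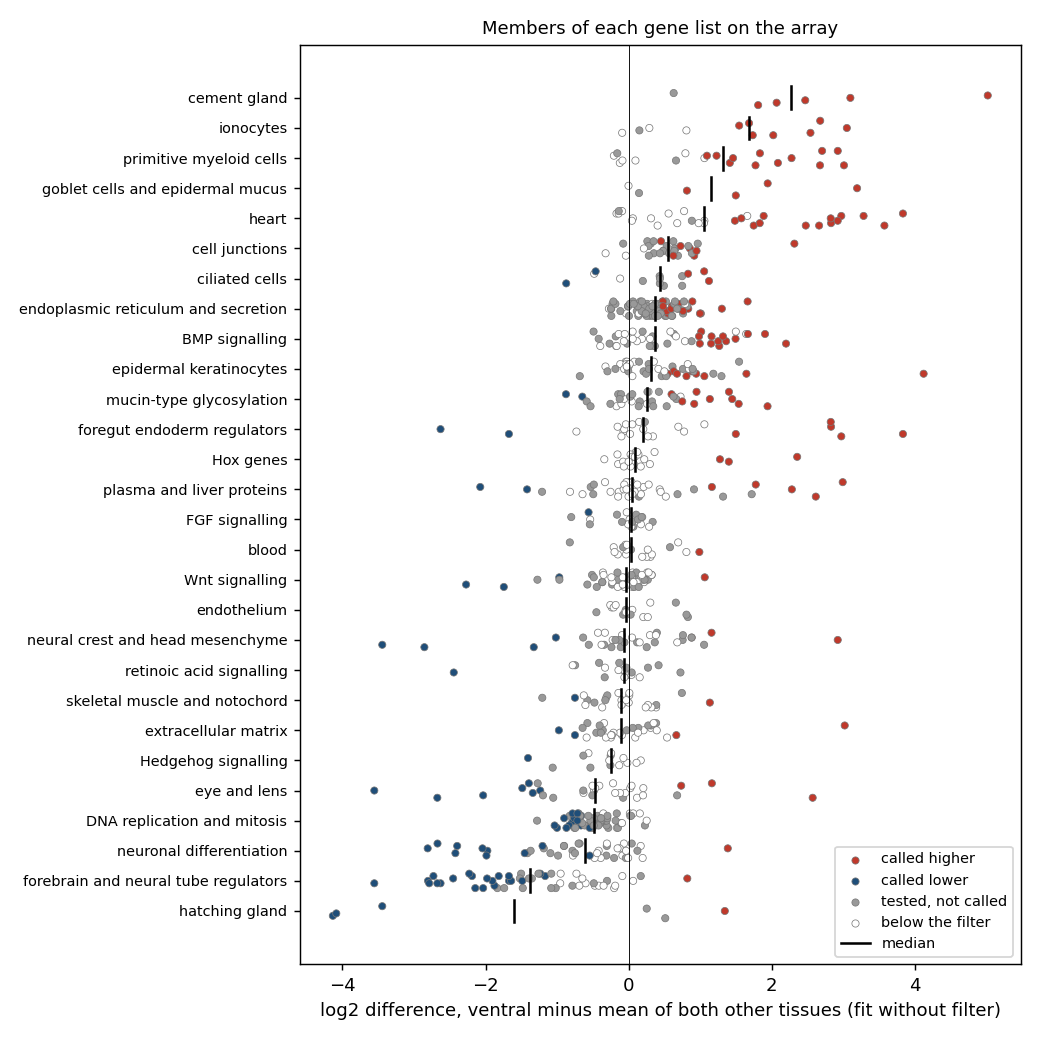
Members of the 28 gene lists on the array, with the log2 difference between ventral tissue and the mean of both other tissues on the x axis (fit without the filter on low signals). Each point is a gene, coloured by its call, open points did not pass the filter, and the bar is the list's median. The cement gland list lies highest (median 2.27) and the hatching gland list lowest (median -1.596).

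Heart genes formed another large group. Of 31 on the array, 20 were higher in ventral tissue without the filter and 0 lower (median 1.06). With the filter, 14 of 16 tested were higher, but 10 of these had passed it on the ventral arrays alone. Summed over the list, signals were 2722 to 3104 on the ventral arrays, 515 to 811 on the mouth arrays and 279 to 321 on the dorsal arrays. The part of heart cells in the counts over all genes was not tested. The cardiac GATA factor gene gata6.L (gene ID 399082) read 409.7, 338 and 180.4 in ventral tissue, 11.8, 4.31 and 9.87 in primary mouth and 7.18, 1.6001 and 1.57 in anterior dorsal tissue (log2 difference 3.83 ± 0.23 SE, adjusted p = 4.18e-07). The basic helix-loop-helix gene hand1.L (gene ID 373663), a marker of heart and lateral mesoderm, read 214, 209 and 164 in ventral tissue, 0.872, 2.68 and 1.93 in primary mouth and 3.17, 0.791 and 0.632 in anterior dorsal tissue (log2 difference 3.57 ± 0.13 SE, adjusted p = 5.66e-08). On the other 6 arrays neither gene exceeded 11.8, near the bottom of the scale. Both passed the filter on the ventral arrays alone and so had to be higher.

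The related regulators were higher too. Signals of gata4.L were 111 to 131 in ventral tissue and 0.675 to 7.91 on the other 6 arrays, those of gata5.L 107 to 163 in ventral tissue and 1.01 to 6.24 on the other 6 arrays and those of gata5.S 155 to 224 in ventral tissue and 3.396 to 28.004 on the other 6 arrays (adjusted p = 2.19e-07 to 6.82e-07). For hand2.S they were 109.7, 232 and 242 in ventral tissue, 24.9, 32.96 and 3.24 in primary mouth and 9.43, 2.1998 and 3.31 in anterior dorsal tissue (log2 difference 2.92 ± 0.302 SE, adjusted p = 2.6e-05). The genes gata4.L, gata5.L, gata5.S and hand2.S all passed the filter on the ventral arrays alone and so had to be higher. The homeobox gene nkx2-5.S (gene ID 379882), an early regulator of heart precursors, read 448, 572 and 826 in ventral tissue, 120.4, 126 and 223 in primary mouth and 7.02, 11.8 and 4.88 in anterior dorsal tissue. It was graded, with mouth arrays above dorsal ones by 2.81 ± 0.26 (SE, adjusted p = 3.54e-05) on the log2 scale and ventral arrays above both (3.28 ± 0.23 SE, adjusted p = 1.2e-06).

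Genes of the contractile apparatus of heart muscle were higher as well. The atrial myosin light chain gene mylc2a (gene ID 380007) read 429, 336 and 227 in ventral tissue, 29.6, 56.4 and 33.6 in primary mouth and 24.9, 34.4 and 33.2 in anterior dorsal tissue (log2 difference 2.74 ± 0.21 SE, adjusted p = 2.45e-06). Cardiac troponin I, tnni3.L (gene ID 494826), read 120.3, 157 and 62.2 in ventral tissue, 1.24, 3.18 and 1.299 in primary mouth and 9.39, 5.59 and 0.846 in anterior dorsal tissue (log2 difference 2.66 ± 0.22 SE, adjusted p = 4.92e-06), and the myosin light chain gene myl4.L read 124 to 193 in ventral tissue and 4.16 to 27.3 on the other 6 arrays (log2 difference 2.47 ± 0.19 SE, adjusted p = 2.13e-06). In these genes the lowest ventral array exceeded the highest other array. Of them, tnni3.L and myl4.L passed the filter on the ventral arrays alone and so had to be higher. Tested heart genes that were not called were tbx5.L, a T-box gene for which 1 dorsal array reached the ventral signals (34.6 to 40.6 in ventral tissue and 1.705 to 35.8 on the other 6 arrays), and the slow skeletal troponin gene tnni1.S (74.4 to 111 in ventral tissue and 67.6 to 156 on the other 6 arrays, adjusted p = 0.683). The RNA-binding gene rbpms2.S, known from the heart of the frog embryo, was read at 179.9 to 247 in ventral tissue and 10.6 to 27.9 on the other 6 arrays (2.63 ± 0.17 SE, adjusted p = 8.06e-07), but another probe set of the gene was not called (log2 difference 0.22, adjusted p = 0.509). The called probe set passed the filter on the ventral arrays alone.

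Skeletal muscle and notochord genes did not share this pattern. Of 25 on the array 1 was higher and 1 lower without the filter (median -0.1003), against 9.04% and 4.43% of all genes. They were the creatine kinase gene ckm.L (1.13) and the collagen gene col9a1.L (-0.75), whose call was lost within the high-ratio arrays (adjusted p = 0.0693). Hox genes pattern the trunk and hindbrain along the head to tail axis. Of 21 on the array 3 were higher and 0 lower without the filter (median 0.09), against 9.04% and 4.43% of all genes. They were hoxa3.S (76.1 to 111 in ventral tissue and 3.53 to 10.9 on the other 6 arrays), hoxa2.L (38.1 to 66.3 in ventral tissue and 4.49 to 16.9 on the other 6 arrays) and hoxa2.S (34.8 to 46.8 in ventral tissue and 3.75 to 11.1 on the other 6 arrays), all of low level on the other 6 arrays. All 3 passed the filter on the ventral arrays alone and so had to be higher. Their count was too small to set apart from the share of all genes. The Maf family gene val.L (gene ID 100217318), whose relatives act in the hindbrain and in myeloid cells, read 149, 169 and 228 in ventral tissue, 11.1, 11.9 and 5.12 in primary mouth and 9.01, 2.61 and 2.76 in anterior dorsal tissue (log2 difference 3.1002 ± 0.17 SE, adjusted p = 2.63e-07). Having passed the filter on the ventral arrays alone, val.L had to be higher.

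Primitive myeloid cells are the first white blood cells of the embryo, and they arise on the ventral side near the heart field. Of 20 myeloid genes on the array 14 were higher in ventral tissue without the filter and 0 lower (median 1.32), and 4 of the 14 tested had passed the filter on the ventral arrays alone. The peroxidase gene mpo.S (gene ID 373710), stored in granules of myeloid cells, read 457, 632 and 677 in ventral tissue, 115, 111 and 129.8 in primary mouth and 26.5, 27.7 and 20.8 in anterior dorsal tissue (log2 difference 3.01 ± 0.16 SE, adjusted p = 2.06e-07). Its homeolog mpo.L read 256, 572 and 601 in ventral tissue, 70.3, 62.4 and 85.9 in primary mouth and 18.5, 46.3 and 18.7 in anterior dorsal tissue (log2 difference 2.92 ± 0.27 SE, adjusted p = 1.24e-05). Both copies were higher in mouth than in dorsal tissue on average, by 1.72 ± 0.18 (SE, adjusted p = 7.41e-05) and 1.07 ± 0.32 (SE, adjusted p = 0.0562), and of these differences the first passed.

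Other myeloid genes were higher too. The transcription factor gene cebpa.L (gene ID 379967), needed for granulocytes in mammals, read 215, 185 and 173 in ventral tissue, 34.6, 26.6 and 13.7 in primary mouth and 8.19, 10.2 and 12.1 in anterior dorsal tissue (log2 difference 2.67 ± 0.17 SE, adjusted p = 7.1e-07). Both subunits of the phagocyte oxidase were higher, cyba.L at 361 to 466 in ventral tissue and 20.01 to 138 on the other 6 arrays and cybb.L at 292 to 365 in ventral tissue and 65.2 to 112 on the other 6 arrays. The eosinophil peroxidase gene epx.L (2.09) and slurp1l.S (2.28), used as a marker of frog myeloid cells, were called with adjusted p of 6.83e-06 to 2.27e-05. Summed over the list, signals were 2318 to 3165 on the ventral arrays, 691 to 826 on the mouth arrays and 347 to 452 on the dorsal arrays.

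The blood list had 3 higher members and the vessel list 0, counts too small to set apart from the share of all genes. Of 19 blood genes on the array 3 were higher and 0 lower without the filter (median 0.03), against 9.04% and 4.43% of all genes. With the filter 5 were tested and 1 was higher. It was gata2.L, a transcription factor of blood precursors and of ventral ectoderm (67.8 to 110.5 in ventral tissue and 28.3 to 42.4 on the other 6 arrays, log2 difference 0.99 ± 0.16 SE, adjusted p = 0.000774). The erythroid factor gene nfe2.S was highest in the dorsal piece (715, 539 and 697) and overlapped between mouth and ventral tissue. Of 7 tested endothelial genes 0 were called higher and 0 lower in limma with the rule on overlap (median -0.04 over 17 on the array). Over all tested genes 10.7% were called higher and 6.14% lower. At an unadjusted p under 0.05 in limma, 3 endothelial genes were higher and 1 lower, against 18.6% and 16.9% of all tested genes. For fli1.S, a regulator of endothelium, signals were 130.5, 183 and 175 in ventral tissue, 348, 286 and 381 in primary mouth and 85.6, 82.3 and 68.1 in anterior dorsal tissue. The vascular receptor gene aplnr.S read 327, 263 and 335 in ventral tissue, 405, 296 and 265 in primary mouth and 92.3, 85.4 and 81.1 in anterior dorsal tissue. In both, ventral tissue was above the dorsal head and not above the mouth, and the mouth minus dorsal differences were 1.899 ± 0.18 (SE, adjusted p = 3.67e-05) and 1.704 ± 0.18 (SE, adjusted p = 8.45e-05).

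Foregut and plasma protein genes went both ways. Of 23 foregut endoderm regulators 8 were higher and 3 lower without the filter (median 0.204). The tested members that were higher were the GATA genes gata4.L, gata5.L, gata5.S and gata6.L, which also belong to the heart list, and foxa1.S. The lower ones were nkx2-1.L and sox2.L, which belong to the forebrain list as well. Of 39 plasma and liver proteins 6 were higher and 3 lower without the filter (median 0.04), against 9.04% and 4.43% of all genes.

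Transferrin, tf.L (gene ID 398723), the iron carrier of plasma, read 695, 577 and 519 in ventral tissue, 182, 267 and 203 in primary mouth and 12.5, 9.31 and 6.902 in anterior dorsal tissue (log2 difference 2.99 ± 0.16 SE, adjusted p = 2.37e-07). The tissues formed steps without overlap. The antithrombin gene serpinc1.L (82.3 to 104 in ventral tissue and 1.86 to 15.3 on the other 6 arrays) and the complement factor I gene cfi.L (79.8 to 196 in ventral tissue and 1.17 to 30.01 on the other 6 arrays) were near the bottom of the scale outside ventral tissue. Both passed the filter on the ventral arrays alone and so had to be higher. Kininogen, kng1.L (gene ID 494833), the precursor of kinin peptides, was lower in ventral tissue at 70.8, 81.9 and 127 in ventral tissue, 522, 934 and 989.6 in primary mouth and 251, 265 and 196 in anterior dorsal tissue (log2 difference -2.07 ± 0.22 SE, adjusted p = 3.6e-05), with the mouth arrays highest. The lower call of ambp.L (-1.42) was not shared by another probe set of the gene (log2 difference 0.27). The hydroxyacid oxidase gene hao1.L (gene ID 100101335), a liver enzyme in mammals, read 319, 235 and 142 in ventral tissue, 18.5, 19.7 and 14.03 in primary mouth and 12.8, 1.54 and 4.71 in anterior dorsal tissue (log2 difference 3.13 ± 0.23 SE, adjusted p = 1.62e-06). Since hao1.L passed the filter on the ventral arrays alone, it had to be higher.

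BMP signalling genes were higher in 17 of 43 cases without the filter and lower in 0 (median 0.37). BMPs are secreted growth factors that specify ventral fate in the early frog embryo, and their signal switches on its own feedback inhibitors. Among ligands, bmp2.L (gene ID 397873) read 106, 118 and 109 in ventral tissue, 20.99, 28.2 and 19.5 in primary mouth and 15.5, 13.7 and 11.6 in anterior dorsal tissue (log2 difference 1.91 ± 0.13 SE, adjusted p = 1.2e-06). The ligand gene bmp4.S (gene ID 399322) read 123, 103 and 104 in ventral tissue, 39.01, 36.002 and 39.6 in primary mouth and 35.6, 34.1 and 33.8 in anterior dorsal tissue (log2 difference 1.27 ± 0.13 SE, adjusted p = 2.1e-05), and bmp7.1.L was read at 1258 to 1421 in ventral tissue and 521 to 756 on the other 6 arrays (log2 difference 1.15 ± 0.14 SE, adjusted p = 0.000105). For these ligands every ventral array lay above all 6 others, and for bmp4.S the mouth and dorsal signals were close together. The gene bmp2.L passed the filter on the ventral arrays alone and so had to be higher.

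Some feedback inhibitors and targets of the pathway were higher as well. The pseudoreceptor gene bambi.L (gene ID 394401) read 86.4, 174 and 203 in ventral tissue, 24.3, 43.5 and 29.1 in primary mouth and 3.79, 16.2 and 12.03 in anterior dorsal tissue (log2 difference 2.199 ± 0.25 SE, adjusted p = 4.77e-05), and the inhibitory Smad gene smad7.L (gene ID 394331) read 153, 83.5 and 121 in ventral tissue, 52.9, 40.4 and 27.7 in primary mouth and 35.8, 19.04 and 18.8 in anterior dorsal tissue (log2 difference 1.49 ± 0.21 SE, adjusted p = 0.000306). The homeobox target genes ventx2.1.S (68.4 to 125 in ventral tissue and 11.9 to 20.001 on the other 6 arrays) and msx2.L (71.9 to 113 in ventral tissue and 24.4 to 41.1 on the other 6 arrays) were called with adjusted p of 2.79e-05 to 0.000117. Of these, ventx2.1.S passed the filter on the ventral arrays alone and so had to be higher. With the filter 13 of 25 BMP genes were higher, and the other 12 were not called. Among the latter were the target genes ventx1.1.L (-0.42), id3.S (0.37) and msx1.L (0.88). The secreted BMP antagonist gene nog.L was not called, at 51.7, 56.1 and 49.1 in ventral tissue, 171, 94.3 and 137 in primary mouth and 41.4, 54.2 and 44.97 in anterior dorsal tissue. Its ventral and dorsal signals overlapped, and the mouth arrays lay above both.

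Of the other signalling pathways, few members were called higher, while lower counts were near or above the share of all genes. Without the filter 9.04% of all genes were higher and 4.43% lower, and with it 10.7% and 6.14%. Wnt signalling genes were higher in 1 and lower in 3 of 48 cases without the filter (median -0.04). With the filter 3 of 26 were lower, and 1 of the 21 that had a ventral array above it. The secreted modulator gene sfrp2.S was higher (1.06 ± 0.18 SE, adjusted p = 0.000886). The Wnt antagonist genes frzb.L, frzb.S and wif1.S were lower. For frzb.S (gene ID 734982) signals were 6.45, 5.29 and 10.8 in ventral tissue, 359.6, 139 and 418 in primary mouth and 41.2, 26.8 and 17.5 in anterior dorsal tissue, and for frzb.L (gene ID 399085) they were 30.7, 28.04 and 32.9 in ventral tissue, 331, 209 and 932 in primary mouth and 32.9, 64.03 and 33.4 in anterior dorsal tissue. The mouth signals were far above the rest, and against the dorsal arrays the log2 differences were -0.89 (adjusted p = 0.0735) and -0.31 (adjusted p = 0.64).

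In the retinoic acid list 0 of 20 genes were higher and 1 was lower without the filter (median -0.06). It was aldh1a2.L (gene ID 399389), the enzyme that makes retinoic acid, at 21.8, 19.2 and 12.3 in ventral tissue, 208, 166 and 192 in primary mouth and 165, 173 and 112 in anterior dorsal tissue (log2 difference -2.44 ± 0.17 SE, adjusted p = 1.2e-06). Mouth and dorsal signals overlapped, and each ventral array lay below all of them. The gene aldh1a2.L passed the filter through the other tissues alone. In the Hedgehog list 0 of 14 were higher and 1 was lower without the filter (median -0.25), the ligand gene shh.L (gene ID 398047) at 53.4, 58.2 and 35.9 in ventral tissue, 322, 209 and 109.7 in primary mouth and 115, 133 and 117 in anterior dorsal tissue (log2 difference -1.41 ± 0.26 SE, adjusted p = 0.00164). With the filter, median centring of each array raised the lower count from 1 to 3 of 6. Of 11 tested FGF genes 0 were higher and 1 was lower (median 0.04 over 19). It was the receptor gene fgfr2.L (-0.56 ± 0.16 SE, adjusted p = 0.0249), a call that went with the omission of anterior dorsal 2 (adjusted p = 0.0527), ventral 1 (0.107) or ventral 3 (0.0672). Another probe set of fgfr2.L was not called, with a log2 difference of -0.47 (adjusted p = 0.0817).

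**Figure D3:**
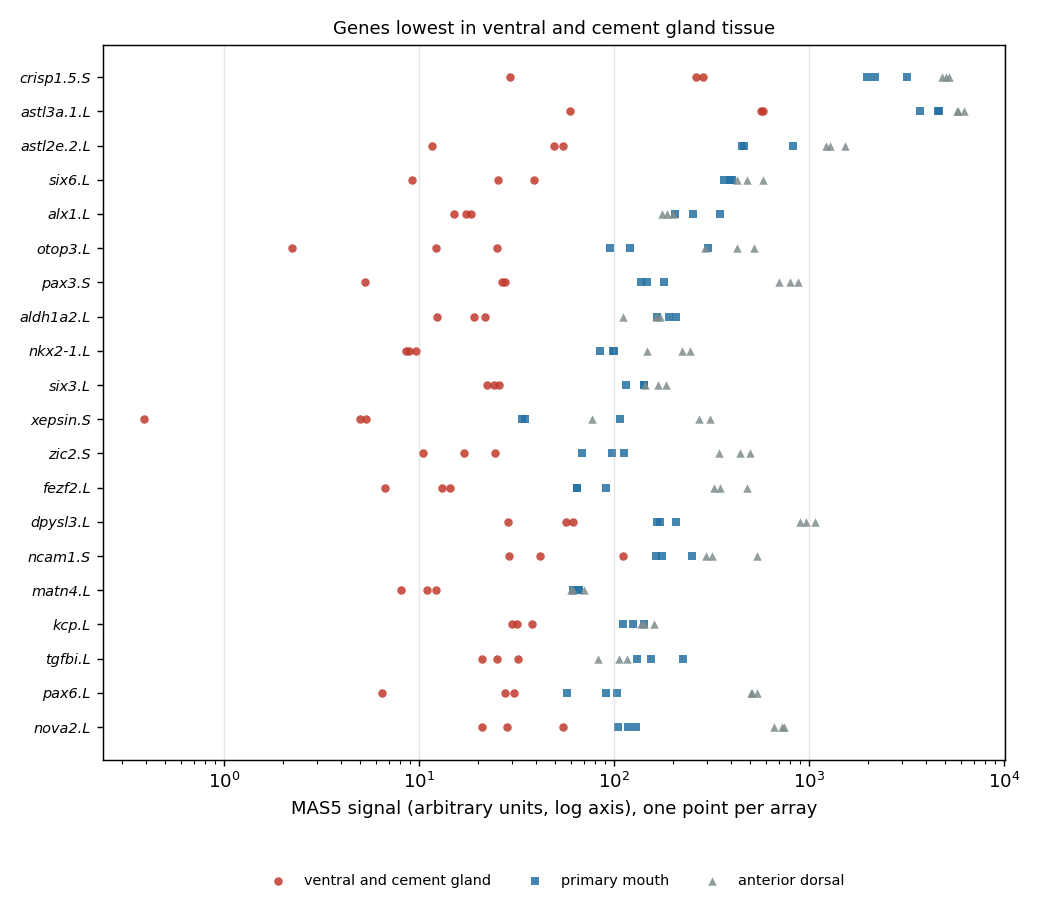
Signals of the 20 named genes that stood lowest in ventral and cement gland tissue by the smaller of both pairwise differences, with 1 point per array on a log axis (MAS5 units). In every row the 3 ventral points lie to the left of the 6 others, as the choice of genes requires, and in most rows the dorsal points lie farthest right. For crisp1.5.S the ventral arrays lie at 29.3 to 286 and the others at 1977 to 5217.

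Astacin proteases and a CRISP family gene led the genes that were lower in ventral tissue. The hatching gland lies on the dorsal head of the frog embryo and releases astacin proteases that open the egg envelope. Its list of 6 genes, all tested, had 3 lower and 1 higher members (median -1.596). The astacin gene astl3a.1.L (gene ID 397718) read 571, 583 and 59.2 in ventral tissue, 3699, 4633 and 4593 in primary mouth and 6233, 5771 and 5810.1 in anterior dorsal tissue (log2 difference -4.09 ± 0.51 SE, adjusted p = 0.00012). A related astacin gene, astl2e.2.L (gene ID 494813), read 54.8, 49.2 and 11.7 in ventral tissue, 453, 465 and 826 in primary mouth and 1225, 1290.3 and 1534 in anterior dorsal tissue (log2 difference -4.13 ± 0.29 SE, adjusted p = 1.2e-06). In both genes ventral array 3 was far below ventral arrays 1 and 2. The same held for crisp1.5.S (gene ID 398591), a cysteine-rich secretory protein, at 286, 263 and 29.3 in ventral tissue, 1977, 2190.3 and 3197 in primary mouth and 4803, 5076 and 5217 in anterior dorsal tissue (log2 difference -4.48 ± 0.48 SE, adjusted p = 3.07e-05). Summed signals of the hatching gland list were 1986 to 2401 on the ventral arrays, 5923 to 6702 on the mouth arrays and 9139.98 to 9653 on the dorsal arrays, and the part of this gland's cells in the other lower calls was not tested.

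The remaining hatching gland members differed. The paired-box gene pax3.S (gene ID 496376), which acts in dorsal neural tube, neural crest and hatching gland, read 27.7, 26.6 and 5.304 in ventral tissue, 137, 181 and 149 in primary mouth and 799, 876 and 706 in anterior dorsal tissue (log2 difference -3.44 ± 0.22 SE, adjusted p = 6.82e-07). The probe set that stands for its homeolog pax3.L was not called (765 to 1119 in ventral tissue and 519.8 to 1369 on the other 6 arrays), and another probe set of pax3.L was called lower (log2 difference -1.49, adjusted p = 0.000169). The Krüppel-like gene klf17.L was higher (162 to 190.5 in ventral tissue and 42.6 to 89.4 on the other 6 arrays, log2 difference 1.34 ± 0.197 SE, adjusted p = 0.000373), and the astacin gene astl2d.1.L overlapped between tissues (438 to 960.3 in ventral tissue and 218 to 757 on the other 6 arrays). The trypsin-like protease gene xepsin.S (0.392 to 5.34 in ventral tissue and 33.7 to 312 on the other 6 arrays) and the proton channel gene otop3.L (2.23 to 25.1 in ventral tissue and 94.99 to 521 on the other 6 arrays) were lower, with adjusted p of 0.000396 and 2.54e-05. The homeolog xepsin.L was tested and not called (log2 difference 0.34, limma adjusted p = 0.45). The genes pax3.S, xepsin.S and otop3.L passed the filter through the other tissues alone.

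Of the 28 lists, the one of forebrain and neural tube regulators had the most lower members. Without the filter 22 of 50 were lower and 1 was higher (median -1.37). With it 21 of 37 were lower, and 4 of the 10 that had a ventral array above it. The homeobox gene six6.L (gene ID 398128), which acts in eye and hypothalamus, read 38.9, 25.6 and 9.195 in ventral tissue, 365, 396 and 406 in primary mouth and 579, 482 and 427 in anterior dorsal tissue (log2 difference -3.55 ± 0.21 SE, adjusted p = 4.59e-07). For six3.L (gene ID 373739), a forebrain regulator, signals were 25.7, 24.3 and 22.5 in ventral tissue, 142, 115 and 143 in primary mouth and 168, 186 and 144 in anterior dorsal tissue (log2 difference -2.03 ± 0.14 SE, adjusted p = 1.2e-06). In both genes mouth and dorsal tissue did not differ past the threshold, and every ventral array was below both. The exception in direction was irx2.L (0.82), whose call was lost within the high-ratio arrays (adjusted p = 0.111).

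Other genes of this group formed steps from dorsal head to ventral tissue. The zinc finger gene fezf2.L (gene ID 735002) of the forebrain read 14.5, 13.2 and 6.73 in ventral tissue, 91.6, 65.1 and 64.6 in primary mouth and 484, 327 and 349.7 in anterior dorsal tissue (log2 difference -2.79 ± 0.18 SE, adjusted p = 6.82e-07). Signals of zic2.S (gene ID 379115) were 16.96, 24.6 and 10.4 in ventral tissue, 112, 98.1 and 68.98 in primary mouth and 498, 445 and 345 in anterior dorsal tissue (log2 difference -2.73 ± 0.19 SE, adjusted p = 1.24e-06), and those of the hypothalamic and thyroid gene nkx2-1.L (gene ID 373626) were 9.71, 8.57 and 8.896 in ventral tissue, 99.2, 100.3 and 84.95 in primary mouth and 246, 223 and 147 in anterior dorsal tissue (log2 difference -2.63 ± 0.16 SE, adjusted p = 6.47e-07). In each the mouth arrays lay below the dorsal arrays and above the ventral arrays. The neural progenitor gene sox2.L followed the same order (58.9, 86.8 and 53.4 in ventral tissue, 151, 145 and 169 in primary mouth and 306, 456 and 379 in anterior dorsal tissue). The mouth minus dorsal differences of these genes were -2.16, -2.03, -0.97 and -1.196 on the log2 scale (adjusted p = 3.67e-05 to 0.00556). Summed over the list, signals were 1541 to 2342 on the ventral arrays, 3619 to 5363 on the mouth arrays and 11049.6 to 12206 on the dorsal arrays.

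Eye and lens genes were lower in 7 and higher in 3 of 31 cases without the filter (median -0.47), against 4.43% and 9.04% of all genes. The higher count was thus close to the share of all genes. With the filter 7 of 17 were lower, and 3 of the 9 that had a ventral array above it. Of the lower ones, six6.L, six6.S, six3.L, pax6.L and lhx2.L belong to the forebrain list as well. The eye field gene pax6.L (gene ID 379100) read 30.9, 27.5 and 6.51 in ventral tissue, 90.6, 104 and 57.8 in primary mouth and 503, 509 and 539.9 in anterior dorsal tissue (log2 difference -2.67 ± 0.23 SE, adjusted p = 6.88e-06). On 3 other probe sets of pax6.L the contrast passed as well (adjusted p = 0.000314 to 0.00331), but ventral and mouth signals overlapped. The higher members were T-box genes, which are also active in other organs. Signals of tbx3.S (gene ID 397816) were 283, 324 and 301 in ventral tissue, 33.1, 42.7 and 28.1 in primary mouth and 36.1, 47.4 and 40.3 in anterior dorsal tissue (log2 difference 2.57 ± 0.15 SE, adjusted p = 2.92e-07), and tbx3.L and tbx2.L differed by 1.16 and 0.73. The calls of tbx3.L and tbx2.L were lost within the high-ratio arrays (adjusted p = 0.066 and 0.42), as was the lower call of six6.S (0.0694).

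Genes of neuronal differentiation were lower in 10 and higher in 1 of 42 cases without the filter (median -0.62). With the filter 10 of 28 were lower, and 6 of the 17 that had a ventral array above it. The growth cone gene dpysl3.L (gene ID 494650) read 61.8, 56.7 and 28.7 in ventral tissue, 172, 208 and 167 in primary mouth and 1076, 903 and 963 in anterior dorsal tissue (log2 difference -2.81 ± 0.18 SE, adjusted p = 7.1e-07). The neuronal splicing factor gene nova2.L (gene ID 779126) read 54.7, 28.4 and 21.1 in ventral tissue, 118, 129 and 105 in primary mouth and 659, 725 and 747 in anterior dorsal tissue (log2 difference -2.67 ± 0.19 SE, adjusted p = 1.33e-06). Both were highest in the dorsal head and lowest in ventral tissue. The adhesion gene ncam1 was lower in both copies, with log2 differences of -2.04 for ncam1.S and -1.97 for ncam1.L (adjusted p = 1.76e-05 to 0.000398). The synaptotagmin gene syt1.L (gene ID 447431), a calcium sensor of vesicle release, was higher instead, at 447, 511 and 616 in ventral tissue, 206, 161 and 233 in primary mouth and 179, 176 and 188 in anterior dorsal tissue (log2 difference 1.38 ± 0.15 SE, adjusted p = 4.16e-05).

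Neural crest and head mesenchyme genes had 3 higher and 4 lower of 33 without the filter (median -0.06), against 9.04% and 4.43% of all genes. The higher count was thus close to the share of all genes. With it, 2 of 22 were higher beside hand2.S, which passed on the ventral arrays alone, and 2 of the 20 that had a ventral array above it were lower. The head mesenchyme homeobox gene alx1.L (gene ID 373650) read 17.4, 18.4 and 15.2 in ventral tissue, 348, 205 and 253 in primary mouth and 177, 187 and 201 in anterior dorsal tissue (log2 difference -2.85 ± 0.16 SE, adjusted p = 3.32e-07). It was even across the ventral arrays and at least 177 elsewhere. The cartilage and crest regulator gene sox9.S (104 to 198 in ventral tissue and 273 to 769.9 on the other 6 arrays) and tfap2b.L (29.8 to 43.8 in ventral tissue and 54.96 to 184 on the other 6 arrays) were lower, with adjusted p of 0.000884 to 0.00385. The higher members were hand2.S, msx2.L and dlx3.L (0.88), of which hand2.S and msx2.L also stand in the heart and BMP lists, and the dlx3.L call was lost within the high-ratio arrays (adjusted p = 0.228).

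Extracellular matrix genes had 2 higher and 3 lower of 32 without the filter (median -0.11), against 9.04% and 4.43% of all genes. Beside has1.S the higher one was the hyaluronan receptor gene cd44.L (0.67), whose call was lost without ventral 3 (adjusted p = 0.0889). The lower ones among those tested were fbln1.L (-0.98) and col9a1.L. Outside the lists, the matrilin gene matn4.L (gene ID 100380989) read 11.02, 12.2 and 8.11 in ventral tissue, 65.97, 65.5 and 61.6 in primary mouth and 70.02, 61.5 and 60.5 in anterior dorsal tissue (log2 difference -1.602 ± 0.13 SE, adjusted p = 3.13e-06). Its mouth and dorsal signals overlapped, and it passed the filter through those tissues alone. The kielin/chordin-like gene kcp.L (30.01 to 38.2 in ventral tissue and 111 to 159.9 on the other 6 arrays) and tgfbi.L (20.995 to 32.1 in ventral tissue and 82.9 to 227 on the other 6 arrays), a secreted matrix protein, were also lower.

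Genes of DNA replication and mitosis were lower in 17 and higher in 0 of 54 tested cases (median -0.49 over 62 on the array), against 6.14% and 10.7% of all tested genes. In all, 40 were lower at an unadjusted p under 0.05 and 0 higher, against 16.9% and 18.6% of all 5371 genes. The replication clamp gene pcna.L (gene ID 398425) read 1745, 1251 and 1433 in ventral tissue, 2304, 2658 and 2154 in primary mouth and 2969, 2429 and 2763 in anterior dorsal tissue (log2 difference -0.78 ± 0.15 SE, adjusted p = 0.00188), and the helicase subunit gene mcm4.S (gene ID 373601) read 80.4, 103 and 94.5 in ventral tissue, 165, 137 and 187 in primary mouth and 248, 265 and 272 in anterior dorsal tissue (log2 difference -1.04 ± 0.14 SE, adjusted p = 0.000235). The helicase gene mcm5.L (-0.798) and the replication fork gene gins1.S (-0.76) were lower too. The calls of pcna.L and mcm5.L were lost within the high-ratio arrays (adjusted p = 0.237 and 0.247). Summed over the list, signals were 15660.1 to 16283 on the ventral arrays, 19397 to 23252 on the mouth arrays and 25024 to 27737 on the dorsal arrays.

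**Figure D4:**
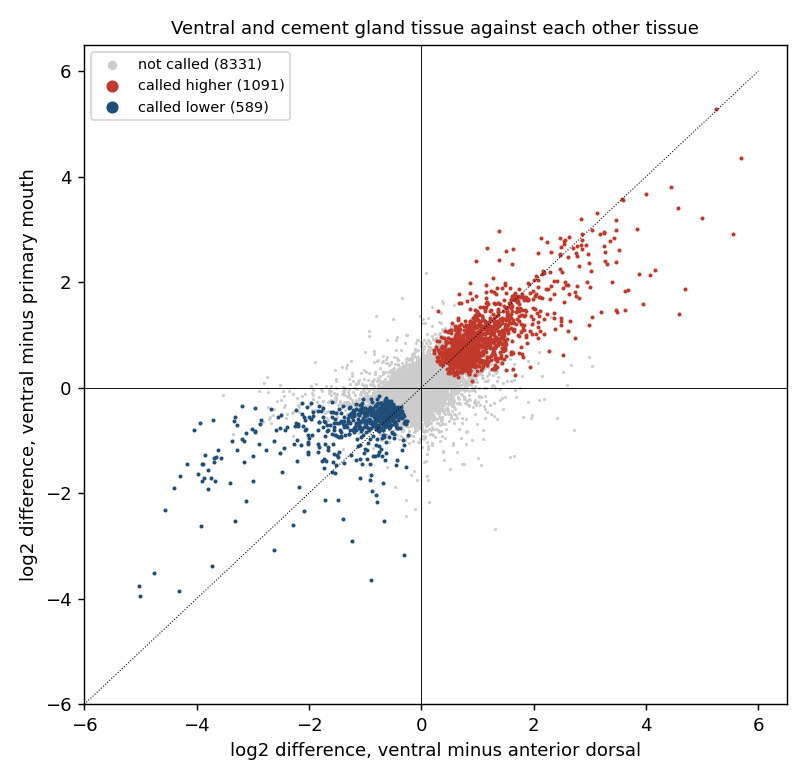
Log2 difference of ventral and cement gland tissue against anterior dorsal tissue (x axis) and against primary mouth (y axis) for each of the 10011 tested probe sets, with called ones in colour. The dotted line marks equal differences from both tissues. Most called lower probe sets (448 of 589) lie nearer to primary mouth than to anterior dorsal tissue.

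Primary mouth lay between ventral and dorsal tissue for part of the called genes. This contrast, primary mouth against anterior dorsal tissue, did not choose the genes, though the rule on overlap limits how far either tissue can reach. Over all tested probe sets 469 (4.68%) were higher and 488 (4.87%) lower in mouth than in dorsal tissue. Among the 1091 probe sets higher in ventral tissue, 118 (10.8%) were higher in mouth than in dorsal tissue and 21 (1.92%) lower, and 952 did not pass. These counts were 74 and 12 without anterior dorsal 2, 63 and 13 without anterior dorsal 3, and 184 and 39 with the class of beta-actin ratio as a block. Among the 589 lower ones, 148 (25.1%) were lower in mouth than in dorsal tissue, 16 (2.72%) higher, and 425 did not pass. The nearer tissue was primary mouth for 60.3% of the higher and 76.1% of the lower probe sets, against 56.6% of all tested.

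Among the higher genes, a dorsal level above that of the mouth was less common than the reverse, as counted above. The chemokine gene cxcl14.L (gene ID 444627) read 226, 157 and 314 in ventral tissue, 16.3, 11.96 and 15.96 in primary mouth and 98.4, 74.2 and 58.6 in anterior dorsal tissue, highest in ventral tissue and lowest in mouth, with a mouth minus dorsal difference of -1.58 ± 0.24 (SE, adjusted p = 0.000936). The chemokine receptor gene cxcr4.L (gene ID 100192360) was ordered from ventral tissue over mouth to dorsal head, at 133, 143 and 105 in ventral tissue, 201, 204 and 481 in primary mouth and 937, 1274 and 1609 in anterior dorsal tissue, with a mouth minus dorsal difference of -2.13 ± 0.304 (SE, adjusted p = 0.000649). Between ventral tissue and both others, cxcr4.L differed by -2.08 and its homeolog cxcr4.S, not called, by 0.01 (limma adjusted p = 0.966). Within the gene lists, the mouth was above the dorsal head in 5 of 6 cement gland genes, in 7 of 14 myeloid genes and in 0 of 8 ionocyte genes, and below it in 30 of 37 forebrain genes. The filter bears on these counts. Of the 37 forebrain genes, 27 had passed it through mouth or dorsal signals alone. On the ventral arrays alone 4 myeloid and 3 ionocyte genes had passed it, being low in both other tissues. In limma this mouth contrast called 264 of 5371 genes higher (4.92%) and 262 lower (4.88%).

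Xenopus laevis carries homeologous gene copies on its L and S subgenomes, and probe sets may detect both. Of 689 pairs with both copies tested, the L copy was higher in 76 and the S copy in 87, and both were higher in 47 (61.8% of the former and 54.02% of the latter). The L copy was lower in 54 pairs, the S copy in 35 and both in 21 (38.9% and 60.%). In 0 pairs were the copies called in opposite directions. Pearson's r of the log2 differences of both copies was 0.72 across the pairs, which share arrays and may share probes. Of 727 genes with several tested probe sets, 0 had calls in opposite directions and 91 had some probe sets called and others not. Among the latter was the annexin gene anxa5.S, whose brightest probe set differed by 2.74 ± 0.24 (SE, adjusted p = 5.87e-06), while its 5 other tested probe sets were not called (-0.04 to 0.67).

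The 3 ventral arrays were not alike for every gene group. Ventral array 3 was the lowest of the 3 for 315 of the 589 lower probe sets, array 1 for 147 and array 2 for 127. Over all tested probe sets these numbers were 3808, 3861 and 2342. Array 3 was also the highest for 511 of the 1091 higher probe sets. Its median deviation from the ventral mean was -0.42 on the log2 scale for the hatching gland list, -0.198 for the forebrain list and -0.16 for the heart list, and 0.15 for the endoplasmic reticulum list. For the cement gland list the highest array was 1 (0.21) and the lowest 2 (-0.28). Without ventral array 3, 947 probe sets were higher and 416 lower.

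**Figure D5:**
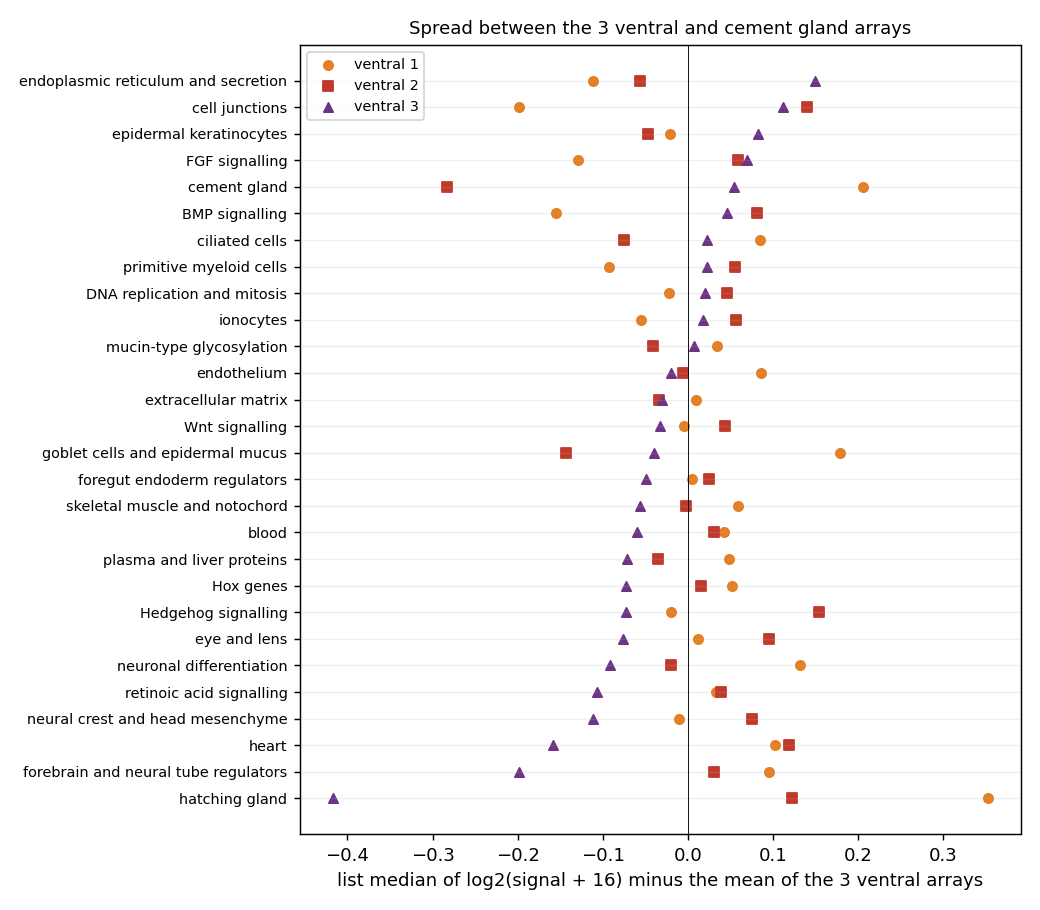
Spread between the 3 ventral and cement gland arrays by gene list, as the median over the list's genes of log2(signal + 16) minus the gene's mean over the 3 ventral arrays (x axis). Each list has 1 point per ventral array. Array 3 lies lowest for the hatching gland (-0.42), forebrain (-0.198) and heart (-0.16) lists and highest for the endoplasmic reticulum list (0.15).

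Among the remaining leading genes, the hes family repressor gene hes5.10.L (gene ID 398150) read 143, 146 and 228 in ventral tissue, 5.04, 3.36 and 4.26 in primary mouth and 11.1, 10.6 and 7.74 in anterior dorsal tissue (log2 difference 3.02 ± 0.16 SE, adjusted p = 2.06e-07). This gene passed the filter on the ventral arrays alone and so had to be higher. The tolloid-like protease gene tll2l.L (gene ID 100158314) read 311, 433 and 542 in ventral tissue, 53.4, 50.3 and 30.3 in primary mouth and 58.98, 57.7 and 47.8 in anterior dorsal tissue (log2 difference 2.74 ± 0.19 SE, adjusted p = 1.3e-06). In both genes ventral array 3 was the highest, and mouth and dorsal signals did not differ past the threshold (adjusted p = 0.286 and 0.57).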

How the data were processed

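Signals were measured on Affymetrix arrays from RNA of 9 dissected tissue samples, with groups taken from the labels. The table that the authors deposited gives an intensity on a linear scale for each probe set on each array, made with MAS5 (Affymetrix's summary of the probes of a set) per the submitters' processing notes. For MAS5, version and settings were not given in the sources used here. Detection calls were not analysed here, so low signals were not read as absence. With the top and bottom 2% of probe sets left out, each array had a mean signal of 150.02, and this scaling was kept. Arrays have no read depth: the number of arrays limits the precision. No label says whether the samples came from separate clutches, nor what the letter in primary mouth 1a stands for. The p-values therefore rest on the spread between these samples alone, and that spread may be technical.

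Of 15611 probe sets 120 are controls. The platform annotation gives 1 gene symbol for 9304, several for 195 and none for 5992, and genes were named from the first kind alone. The IDs of 9227 were found in the RefSeq table for assembly Xenopus_laevis_v10.1, which served for names only, and 330 carry a clone, locus or placeholder name. Tested were the 10011 probe sets whose signal exceeded its array's 40th percentile (30.9 to 35.8) on at least 3 of 9 arrays. A linear model of log2(signal + 16) with 1 mean per tissue was fitted with limma 3.58.1 in R 4.3.3 (eBayes with a variance trend, 6 residual degrees of freedom). The contrast of ventral tissue with the mean of both others was tested two-sided, and p-values were adjusted over all tested probe sets by Benjamini-Hochberg. Log2 differences understate the change of low signals. Errors are standard errors of the model. Only the limma contrast was tried on simulated data, with independent noise and without the rule on overlap.

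Each gene was represented by its brightest tested probe set, by the mean over all arrays. Named were the 25 highest and 20 lowest called genes by the smaller of both pairwise differences, ag1, agr2, muc2l, pitx1 and otx2 where tested, and up to 4 called members per gene list and direction. The members, the 28 gene lists and the tests were chosen with earlier results of these data known. Some list members and homeologs outside this rule and the list below were also named with their values seen. Among them were ventx1.1.L, id3.S, msx1.L, krt70.L, cnfn.1.L, lgals9c.L, xepsin.L and cxcr4.S, none of them called. Another 24 genes were named after their values were seen: nkx2-5.S, myl4.L, tbx5.L, tnni1.S, itln1.L, foxi1.L, ca12.L, atp6v1a.L, astl2d.1.L, pax3.L, epx.L, cybb.L, slurp1l.S, krt12.4.S, krt18.1.L, krt19.L, bmp4.S, bmp7.1.L, nog.L, aplnr.S, fli1.S, cxcl14.L, cxcr4.L and nfe2.S. Most same-numbered samples of different tissues deviated together (correlations of 0.35 to 0.68), but primary mouth 2 did not. Its correlations were -0.12 with ventral 2 and -0.23 with anterior dorsal 2. The class of beta-actin ratio runs the same way. The arrays numbered 1 or 1a were all of high ratio and those numbered 3 all of low ratio. Among those numbered 2, primary mouth alone was of high ratio. In these correlations, pairing and this class therefore cannot be told apart. As the labels name no pairs, the numbers were not taken to pair samples in the main fit. Alternatives were other pseudocounts, filters and scalings, eBayes without a trend, the class of beta-actin ratio as a block and within each class, the replicate number as a block, other call rules and leaving out each array.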

Additional observations from a re-analysis of the deposited data

How the results depend on the processing

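Counts of higher and lower probe sets (1091 and 589) moved by less than 1.5 times under other pseudocounts, filters, scalings and variance settings. The arrays of high beta-actin ratio alone gave 653 and 377, those of low ratio 1410 and 1000, where fewer arrays also make it easier not to overlap. Requiring both pairwise contrasts gave 801 and 254, and dropping the rule on overlap 1378 and 926. Leaving out 1 array gave 947 to 1211 higher and 416 to 803 lower; 846 and 358 kept the call in all 9 such fits. Among higher probe sets, those higher in mouth than in dorsal tissue (118) numbered 75 in the high-ratio arrays, 184 with the ratio class as a block and 63 to 134 with 1 array left out (74 without anterior dorsal 2, 63 without anterior dorsal 3). Those lower in mouth (21) numbered 12, 39 and 12 to 27 (12 and 13 without anterior dorsal 2 and 3). The causes were not tested. With the replicate block the 4 counts were 1153, 688, 173 and 39, and the paired fit ended no call of a named gene. Median centring, which moved the median of all tested probe sets from -0.06 to -0.12, gave 941 higher and 766 lower, a higher share of 55.1% of calls against 64.9%. Over 147 named genes and 20 alternative fits, 24 genes lost the threshold at least once, mostly in the high-ratio arrays. Directions of called genes could not reverse in fits on fewer arrays, since the groups do not overlap. Signals near the bottom of the scale limit how far a fold can be read.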
